A study of Mus musculus with 10 samples.

Results

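The H19/Igf2 domain on distal mouse chromosome 7 was examined in oocytes with and without the insulator protein CTCF, through every probe set whose only platform gene symbol was H19, Igf2, Ins2, Mrpl23, Tnnt3, Lsp1, Tnni2, Syt8 or Ctsd. Of these 9 genes 8, out of 18194 genes on the array, had such a probe set, giving 11 of the 45101 probe sets on the array and 11 of the 34945 with 1 symbol. H19 had none: the single probe set that lists it also lists the microRNA gene Mir675, which lies inside H19, and so falls outside the selection. The samples were germinal vesicle oocytes, fully grown and arrested in prophase of the first meiotic division, with 5 arrays of wild type oocyte RNA and 5 of CTCF-depleted oocyte RNA. The labels give neither the means of depletion, the strain and age of the mice, nor the number of oocytes per array, and do not say whether replicates came from separate animals, so the spread behind each p-value may be technical only. The description line of every sample, wild type included, names CTCF depletion, and the groups were taken from the titles, which the Ctcf signal follows.

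CTCF binds an imprinting control region that lies between H19 and Igf2. On the maternal chromosome this region is unmethylated, bound CTCF insulates Igf2 from enhancers beyond H19, and H19, a noncoding RNA, is expressed; on the paternal chromosome DNA methylation keeps CTCF away and Igf2, a fetal growth factor, uses the same enhancers. In a fully grown oocyte both copies are in the maternal, unmethylated state. Igf2 and H19 are known from embryonic and mesodermal tissues rather than from oocytes. The arrays measure total transcript and do not separate alleles. In gene order the selected genes run Ctsd, Syt8, Tnni2, Lsp1, Tnnt3, Mrpl23, H19, Igf2, Ins2, by the RefSeq gene table of assembly GRCm38.p6. The array files name no build, and the only coordinates printed are those of RefSeq start-site windows.

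Start-site sequence is shown for the gene with the clearest change, Mrpl23, for a gene at the far end of the row that did not pass, Ctsd, and for Igf2. RefSeq promoter windows (GRCm38.p6) were at hand for 4 of the 9 genes, Ctsd, Syt8, Mrpl23 and Igf2, and the 250 bases before each start were read 5′ to 3′. Capitals mark CCCTC, the core letters after which CTCF is named, and AGGNGGC, a stretch of its longer consensus, each on either strand and counted also where they overlap. The Mrpl23 window is chr7:142532782-142533031, plus strand, the Ctsd window chr7:142387828-142388077, minus strand, and the Igf2 window chr7:142658805-142659054, minus strand, the one of its 4 start sites with the most CCCTC matches, chosen after they were counted.
Mrpl23: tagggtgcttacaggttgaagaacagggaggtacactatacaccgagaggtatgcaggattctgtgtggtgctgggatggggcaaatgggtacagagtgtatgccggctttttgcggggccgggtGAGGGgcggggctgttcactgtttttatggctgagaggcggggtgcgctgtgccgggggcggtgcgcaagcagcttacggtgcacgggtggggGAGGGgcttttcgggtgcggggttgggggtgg
Ctsd: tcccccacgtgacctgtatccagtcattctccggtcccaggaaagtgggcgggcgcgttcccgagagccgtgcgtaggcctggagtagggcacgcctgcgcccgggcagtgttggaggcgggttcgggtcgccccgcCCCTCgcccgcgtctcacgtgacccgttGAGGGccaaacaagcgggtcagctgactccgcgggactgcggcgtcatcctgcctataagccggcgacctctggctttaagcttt
Igf2: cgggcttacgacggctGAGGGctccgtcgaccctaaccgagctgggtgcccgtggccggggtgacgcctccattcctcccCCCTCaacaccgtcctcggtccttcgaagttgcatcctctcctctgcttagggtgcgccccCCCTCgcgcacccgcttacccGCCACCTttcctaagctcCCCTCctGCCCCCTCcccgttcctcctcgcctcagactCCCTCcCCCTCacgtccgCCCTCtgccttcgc
Mrpl23 and Ctsd each held 2 CCCTC matches and 0 AGGNGGC matches, and the Igf2 window 8 and 2. The other Igf2 windows held 1, 0 and 6 CCCTC matches and 0, 0 and 3 AGGNGGC matches, so the window shown did not hold the most AGGNGGC. Of 32851 such windows in the table, 60.5% held CCCTC and 25% AGGNGGC, so a CCCTC match is common. CpG dinucleotides numbered 14 before Mrpl23 and 27 before Ctsd, against a median of 6 over all windows. A match describes letters only, and the control region between H19 and Igf2 lies outside these windows.

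CTCF transcript was strongly reduced in the arrays titled as depleted. Its signal fell to 2.71% and 3.62% of wild type on its 2 probe sets (765.6 ± 74.1 to 20.7 ± 22.7 and 1001 ± 76.0 to 36.3 ± 33.7, SD, n = 5). Depleted replicate 5 kept the most, 61.1 and 95.8. All values are MAS5 signals scaled by the authors to an equal trimmed mean, and the number of arrays limits their precision. The highest of 27 Bacillus control probe sets, 4.75 to 10.9 over the arrays, stood in for a background level. Of all probe sets other than controls, 49.4% to 62.9% exceeded that level, depending on the array, so exceeding it is common. The tissue label was borne out by its markers: 14 of 14 measured oocyte genes, among them Zp3, Gdf9 and Nlrp5, lay above that level on every array, with summed signals of 74170 to 81380 in wild type and 69400 to 79920 in depleted oocytes.

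Along the locus, Mrpl23 fell about 3-fold in depleted oocytes, Igf2 fell about 2-fold from a low level in a call made under 9 of 19 alternatives, and Ctsd, Lsp1, Syt8 and Ins2 did not pass the test. On 2 of the 5 depleted arrays Igf2 was not above the control level. Signals were compared in limma as log2(signal + 2.47), adjusted by Benjamini-Hochberg over 27022 tested probe sets, and a change was called at an adjusted p under 0.05. Of the 11 probe sets 6 were bright enough to enter that fit, 1 each for Ctsd, Syt8, Lsp1, Mrpl23, Igf2 and Ins2, and 5 were too dim. Of the 6, 2 were called, where 12.6% of all tested probe sets were. Both were lower, where 7.12% of all tested probe sets were called lower, and 0 higher, where 5.48% were. At an unadjusted p under 0.05, limma gave 4 lower and 0 higher. Over all 13811 genes, each by its brightest probe set, these counts were 2319 lower and 1874 higher. Arrays of the 2 groups did not overlap for 1 of the 6, Mrpl23, as for 11.1% of all tested probe sets. These counts describe the probe sets that passed the filter on dim signals, and the genes below it are described by their values alone.

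**Figure D1:**
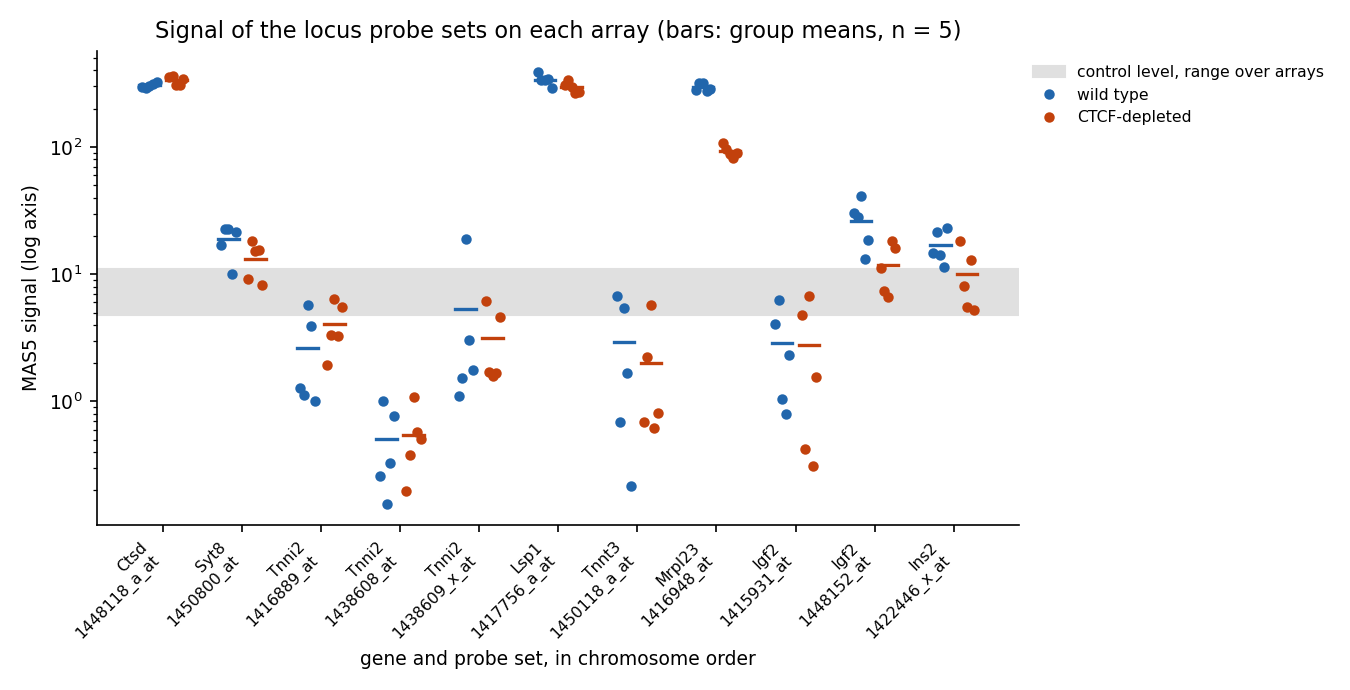
MAS5 signal (log axis) of the 11 locus probe sets on each of 10 arrays, in chromosome order. Points are arrays, bars are means of 5 wild-type (blue) and 5 depleted (orange) arrays, and the grey band is the range of the control level, 4.75 to 10.9. The groups separate for Mrpl23 only, and Tnni2, Tnnt3 and the dimmer Igf2 probe set lie mostly in or under the band.

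Mrpl23 encodes a protein of the large subunit of the mitochondrial ribosome, which translates the messages of the mitochondrial genome, and it is the nearest protein-coding gene to H19 on the side away from Igf2. Its signals on wild-type arrays 1 to 5 were 280.3, 319.4, 316.6, 275.1 and 283.7. On depleted arrays 1 to 5 they were 106.6, 96.6, 87.5, 82.5 and 90.1. Every depleted array lay far under the lowest wild-type array. The means were 295.0 ± 21.2 and 92.7 ± 9.30 (SD, n = 5), so that 31.4% of the wild-type signal remained. On the log2 scale Mrpl23 changed by -1.65 ± 0.09 (SE; adjusted p = 1.85e-09 in limma), a 3.13-fold fall with a 95% interval of 2.76 to 3.55. A two-sided exact permutation test gave p = 0.00794, the smallest that 5 against 5 arrays allow. Ordered by log2 fold change, Mrpl23 had the 30th most negative value of 13811 genes, each represented by its brightest probe set. Depleted replicate 5, with the most Ctcf signal, had 90.1, between replicates 3 and 2, and without it the log2 fold change was -1.64. In bulk RNA a lower level per cell and fewer cells with the transcript cannot be told apart. Mrpl23 had a single probe set, so a second set of probes could not be compared.

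The difference between Mrpl23 and the genes around it was also measured within each array, where the scaling of the arrays cancels. This was done for the 3 probe sets above the control level on all arrays, Ctsd, Lsp1 and Mrpl23, a choice made after their values were seen. Ctsd minus Mrpl23 rose from 0.05 ± 0.15 in wild type to 1.82 ± 0.07 in depleted oocytes on the log2 scale (SD, n = 5), an increase of 1.77 ± 0.07 (SE; two-sided exact permutation p = 0.00794, 0.0119 adjusted over 3 pairs). Lsp1 minus Mrpl23 increased by 1.44 ± 0.10 (SE; exact permutation p = 0.00794, 0.0119 adjusted). Mrpl23 therefore changed by more than either of these genes. Ctsd minus Lsp1 increased by 0.33 ± 0.10 (SE; exact permutation p = 0.0238, also 0.0238 adjusted), from -0.14 ± 0.19 to 0.19 ± 0.11.

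Mrpl23 was set beside the other genes named Mrpl, a list taken by symbol after the values were seen. Of 47 such genes tested, 6 were called higher and 3 lower, where 7.26% of all 13811 genes were called higher and 9.12% lower. The 3 falls were Mrpl23, Mrpl48 at -0.36 ± 0.09 (log2 scale, SE) and Mrpl51 at -0.24 ± 0.05, whose other probe sets, from -0.22 to -0.09 and from -0.48 to -0.21, were not called. By brightest probe set, the rises were smaller in size than the fall of Mrpl23. The highest was Mrpl16, at 0.47, from 810 ± 27.4 to 1119 ± 44.3 (SD, n = 5). Mrpl9 had 0.41, and its other probe sets were also called, at 0.46 and 0.56. Mrpl43 had 0.35 and Mrpl27 0.33, but the other probe set of Mrpl27 gave -0.17. Mrpl19 was not called on its brightest probe set, at 0.24. Its other probe sets gave 0.76, called higher (limma, adjusted p = 0.00844), and 0.74 and -0.22, not called. The median over the 47 genes was 0.03, beside -0.02 over all genes. Among brightest probe sets, the value next to that of Mrpl23 was -0.48, for Mrpl20, which was not called (limma, adjusted p = 0.0609). The falls numbered 5 without depleted replicate 2.

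**Figure D2:**
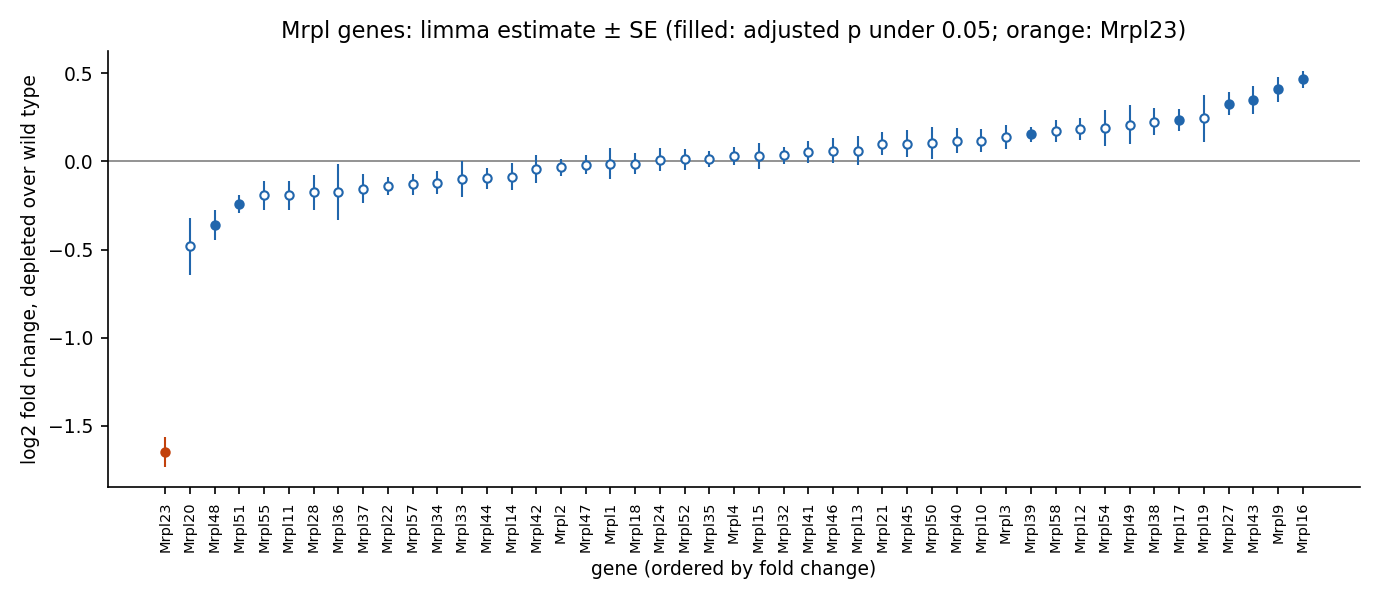
Log2 fold change, depleted over wild type (limma estimate, bars ± SE), of 47 genes whose symbol starts with Mrpl, ordered by value. Filled points had an adjusted p under 0.05 over all tested probe sets. Each gene is shown by its brightest probe set only. Mrpl23 (orange) stands at -1.65 and the other genes lie between -0.48 and 0.47.

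Igf2 encodes insulin-like growth factor 2, and its brighter probe set, 1448152_at, fell on the reported processing. Its signals on wild-type arrays 1 to 5 were 30.5, 28.4, 41.2, 13.1 and 18.6. On depleted arrays 1 to 5 they were 11.1, 7.33, 6.62, 18.2 and 16.2. The groups overlapped: 3 depleted arrays lay under the lowest wild-type array, and replicates 4 and 5 lay among the lower wild-type values. All 5 wild-type arrays and 3 of the 5 depleted arrays were above the control level. The means were 26.4 ± 10.9 and 11.9 ± 5.196 (SD, n = 5), a log2 difference of -0.99 ± 0.29 (SE; adjusted p = 0.0313 in limma; two-sided exact permutation p = 0.0317).

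The call for Igf2 depended on the processing, while its direction did not. With 19 alternatives that could test it, the log2 fold change ran from -1.19 to -0.58 and was called under 9 (limma, adjusted p from 0.0111 to 0.0926). It was not called without wild-type replicate 1, 2 or 3 (-0.92, -0.94 and -0.82) or depleted replicate 1, 2 or 3 (-0.99, -0.87 and -0.85). The size also moved by over 1.5 times with the offset, from -0.99 to -0.58 with an offset of 16. The other Igf2 probe set, 1415931_at, was too dim to enter the fit: 1 wild-type and 0 depleted arrays exceeded the control level, with means of 2.88 ± 2.27 and 2.77 ± 2.88 (SD, n = 5; two-sided exact permutation p = 0.794). Granulosa and cumulus cell markers, summed over 18 genes, lay between 1106 and 1476 on 9 arrays and at 2867 on wild-type replicate 2, where the gap junction gene Gja1 read 1017. Of these genes 11 were above the control level on all arrays, Foxl2, Amhr2 and Inha among them, and 2 on no array, Tnfaip6 and Wt1. Their sums gave a two-sided exact permutation p of 0.833 between the groups. Of the 16 that entered the fit 3 were called higher and 0 lower, where 7.26% of all genes were called higher and 9.12% lower. Of the 16 values 11 were negative and 5 positive, with a median of -0.09, where 7375 of all 13811 genes were negative. Ptgs2, the prostaglandin synthase of cumulus expansion, rose from 4.11 ± 1.57 to 15.02 ± 3.81 (SD, n = 5), the FSH receptor gene Fshr from 23.2 ± 6.69 to 47.8 ± 5.75 and the nuclear receptor gene Nr5a2 from 349.8 ± 26.9 to 433.3 ± 24.6. Another Ptgs2 probe set, at 0.91, was not called. Other Nr5a2 probe sets gave 0.38, which was called, and 0.25 and 0.04, which were not. Kitl was not called on its brightest probe set, at -0.45. Its other probe sets gave -0.79, called lower (limma, adjusted p = 0.0138), and -0.15, not called. The part of the granulosa and cumulus markers in the Igf2 result was not tested beyond the value without wild-type replicate 2, given above. Theca and stroma markers, summed over 18 genes, ran from 281 to 338 in wild type and from 295 to 334 in depleted oocytes, with 5 genes above the control level on all arrays, Cyp11a1, Hsd3b1, Nr2f2, Acta2 and Gli1, and 3 on no array, Pdgfrb, Col1a1 and Tagln.

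**Figure D3:**
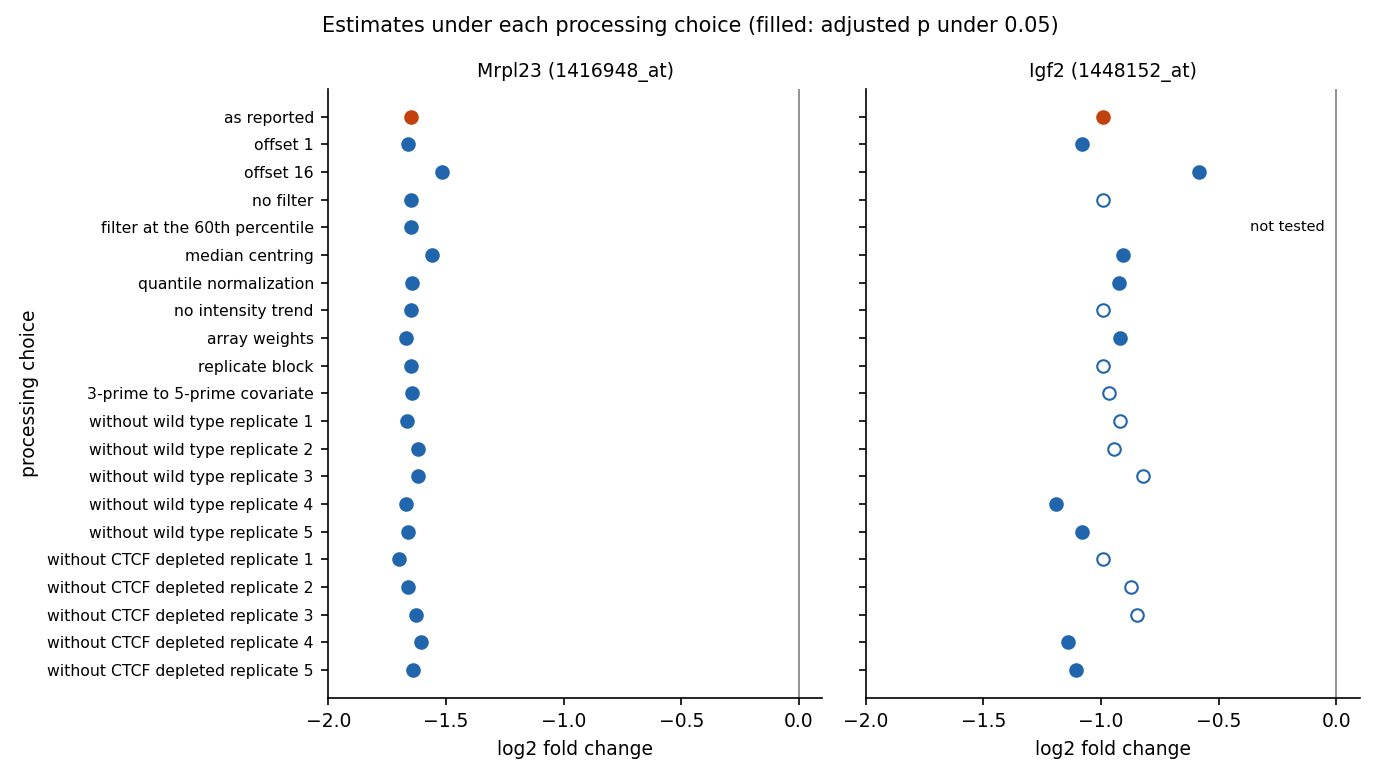
Log2 fold change of Mrpl23 and of the brighter Igf2 probe set under each processing choice, with the reported value in orange. Filled points had an adjusted p under 0.05. Mrpl23 stays between -1.70 and -1.52 and is called under 20 of 20 alternatives, whereas Igf2 is called under 9 of 19.

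Over the 10 arrays the genes whose log2 values followed Igf2 most closely were Mrpl20, a mitochondrial ribosome gene, with Pearson r = 0.961, the complement component gene C8g with 0.91, and the kinase gene Dclk1 with 0.908. With group means removed the correlations were 0.93, 0.818 and 0.915. They were picked as the highest of 13811 genes and share arrays and scaling, so they are descriptions. C8g was called lower (167 to 129, limma, adjusted p = 0.0152), and Mrpl20 and Dclk1 were not.

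Ins2, which encodes insulin, lies beyond Igf2 and is imprinted in some extraembryonic tissue. Its probe set carries a suffix by which the maker marks probes shared with other transcripts. Wild-type arrays 1 to 5 gave 14.8, 21.4, 14.1, 11.4 and 23.1. Depleted arrays gave 18.3, 8.11, 5.52, 12.9 and 5.23, with 3 under the lowest wild-type array and 3 above the control level. The means were 16.96 ± 5.04 and 10.01 ± 5.55 (SD, n = 5), and the log2 fold change of -0.71 ± 0.28 (SE) did not pass (limma, adjusted p = 0.119; two-sided exact permutation p = 0.0635). It was called under 1 of 19 alternatives, without depleted replicate 1, at -0.92 (limma, adjusted p = 0.0348).

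H19 itself could not be described from a probe set of its own. The probe set listed for Mir675 and H19 together, 1448194_a_at, was dim in both groups, above the control level on 3 wild-type and 2 depleted arrays. It read 8.65, 9.35, 6.51, 10.4 and 11.8 on wild-type arrays 1 to 5 and 6.50, 1.81, 9.34, 10.1 and 8.43 on depleted arrays. The groups overlapped, and the log2 fold change of -0.36 ± 0.30 (SE) was not called (limma, adjusted p = 0.497; two-sided exact permutation p = 0.262).

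Lsp1 encodes an actin-binding protein of leukocytes, and its transcript was well above the control level on all arrays. Wild-type arrays 1 to 5 read 386.5, 336.9, 335.9, 340.4 and 292.4, and depleted arrays 304.6, 335.5, 295.0, 264.8 and 269.0. The groups overlapped through wild-type replicate 5 and depleted replicates 1, 2 and 3. The log2 fold change was -0.20 ± 0.08 (SE), with a 95% interval of -0.38 to -0.03, and it was not called (limma, adjusted p = 0.133; two-sided exact permutation p = 0.0714) nor under any of 20 alternatives. Blood, immune and endothelial markers, summed over 18 genes, ran from 267 to 327 in wild type and from 265 to 309 in depleted oocytes, which gave an exact permutation p of 0.968 over the sums. Of these genes 6 were above the control level on all arrays, the macrophage genes Cd68 and Csf1r and the endothelial genes Pecam1, Kdr, Tek and Tie1, and 3 on no array, Ptprc, Cd14 and Coro1a. Of 10 that entered the fit 0 were called, with 0 higher and 1 lower at an unadjusted p under 0.05 in limma. At that threshold 1874 of all 13811 genes were higher and 2319 lower. The part of these markers in the Lsp1 values was not tested.

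Ctsd encodes cathepsin D, an aspartic protease of the lysosome, and lies at the far end of the row from Ins2. Wild-type arrays 1 to 5 read 298.5, 292.0, 302.1, 311.0 and 326.1, and depleted arrays 355.9, 360.8, 308.2, 304.8 and 341.4. Depleted replicates 1, 2 and 5 lay above every wild-type array and the other two lay among them. The means were 305.9 ± 13.2 and 334.2 ± 26.3 (SD, n = 5). The log2 fold change of 0.12 ± 0.07 (SE), with a 95% interval of -0.02 to 0.27, did not pass (limma, adjusted p = 0.283; two-sided exact permutation p = 0.0794). It was not called under any of 20 alternatives. Of 26 lysosome genes tested, Ctsd included, 1 was called higher and 5 lower, with a median of -0.13, where 7.26% of all genes were called higher and 9.12% lower. Scarb2, a lysosomal membrane protein, fell from 31.5 ± 3.63 to 7.38 ± 4.21, the carboxypeptidase gene Ctsa from 41.0 ± 5.22 to 23.2 ± 4.48 and the sterol-binding Npc2 from 2637 ± 154 to 2184 ± 160 (SD, n = 5), and the sialidase gene Neu1 fell by 1.25 on the log2 scale. Depleted signals of Scarb2, from 0.679 to 12.3, and Neu1, from 0.659 to 15.1, reached below the control level. Other probe sets gave smaller values that were not called for Scarb2, at -0.69 against -1.94, and Ctsa, at -0.17 against -0.77, whereas one of Npc2 was also called, at -0.31. The fifth fall was Ppt1, a palmitoyl thioesterase, at -0.41, and the rise was the protease gene Ctsb, at 0.22, both named after their values were seen. The other probe sets of Ppt1, from -0.60 to -0.11, and of Ctsb, at 0.37, were not called. On a probe set that was not their brightest, Gaa was called lower, at -0.53, and Grn higher, at 0.40. The falls numbered 3 with no filter, a filter at the 60th percentile, no intensity trend, median centring or a covariate for RNA quality. They also numbered 3 without wild-type replicate 3 or depleted replicate 4, and 2 without wild-type replicate 5. The rises numbered 0 with no intensity trend, with that covariate, without wild-type replicate 2, 3 or 5 or without depleted replicate 1. They numbered 2 under median centring or without wild-type replicate 1.

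Syt8, a member of the synaptotagmin family of membrane-trafficking proteins, was dim and did not pass. Wild-type arrays 1 to 5 read 17.1, 22.5, 22.8, 9.97 and 21.5, and depleted arrays 9.10, 18.2, 15.2, 15.6 and 8.27. The groups overlapped, with 5 wild-type and 4 depleted arrays above the control level. The log2 fold change was -0.43 ± 0.24 (SE), with a 95% interval of -0.95 to 0.09 (limma, adjusted p = 0.294; two-sided exact permutation p = 0.159). Of 14 synaptotagmin genes tested 0 were called higher and 2 lower, where 16.4% of all genes were called in either direction. At an unadjusted p under 0.05 in limma 2 were higher and 3 lower, where 1874 and 2319 of all 13811 genes were. Syt7 fell from 378 ± 10.6 to 95.1 ± 10.3 (SD, n = 5), while its other probe sets gave -0.36, -1.16 and -2.05, and Syt12 from 28.7 ± 4.94 to 5.76 ± 3.54. Depleted signals of Syt12, from 1.45 to 11.0, reached below the control level.

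Tnni2 and Tnnt3, which encode troponin subunits of fast skeletal muscle, gave little signal that stood out from the control probe sets. Tnnt3 exceeded the control level on no array, with signals from 0.218 to 6.78 in wild type and 0.622 to 5.73 in depleted oocytes. The 3 Tnni2 probe sets exceeded it on 1 array each at most: 1438609_x_at on wild-type replicate 3, at 19.02, and 1416889_at on 1 depleted array, while 1438608_at stayed at or under 1.09. Two-sided exact permutation p-values were 0.706 for Tnnt3 and 0.206, 0.849 and 0.841 for Tnni2. Apart from the single arrays mentioned above, all these signals were at or under the control level, so no fold change is given. Of the 8 troponin genes 4 entered the fit and 1 was called higher, where 7.26% of all genes were. It was Tnnc2, from 9.41 ± 5.02 to 18.5 ± 2.28 (SD, n = 5). That call was absent with no filter, a filter at the 60th percentile, no intensity trend or a covariate for RNA quality. It was also lost without wild-type replicate 1, 2 or 5 or depleted replicate 1, 2, 4 or 5. No troponin gene was called lower, but 1 was with the replicate number as a block, without depleted replicate 5 or at a threshold of 0.1. Of 18 skeletal muscle markers 5 were above the control level on all arrays, Mylpf, Myh1, Myh2, Actn3 and Mb, with Myh2 at 480 to 653, and 4 on no array, Acta1, Myl1, Myog and Cacna1s. Their summed signal was 1458 to 1534 in wild type and 1519 to 1611 in depleted oocytes, a difference with a two-sided exact permutation p of 0.0238. Most of that sum came from Actn3, 733 ± 36.5 to 763 ± 39.6, and Myh2, 539 ± 41.0 to 597 ± 38.1 (SD, n = 5). Neither was called (limma, adjusted p = 0.577 and 0.17). Of the 11 markers in the fit 6 were negative and 5 positive, with a median of -0.01, and 1 was called higher and 0 lower. The part of this sum in the troponin values was not tested.

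Genes beside the 9 selected ones were described in gene order. The RefSeq table holds 27 other genes from 10 places before Ctsd to 10 places after Ins2, of which 10 had a probe set with a single symbol and 8 entered the fit. Of these 8, 0 were called in either direction, against 16.4% of all genes. At an unadjusted p under 0.05 limma gave 0 higher, where 1874 of all 13811 genes were, and 1 lower, where 2319 were. That gene was Ifitm10, next to Ctsd, at -0.44 ± 0.17 on the log2 scale (SE; limma, adjusted p = 0.111). Igf2os, antisense to Igf2, had 0.05 ± 0.43, and Th, the tyrosine hydroxylase gene beyond Ins2, had -0.09 ± 0.06. Cd81, a tetraspanin, had -0.45 ± 0.21. The median over the 8 was -0.13, beside -0.02 over all genes. Of the 8 values 7 were negative, where 7375 of all 13811 genes were. Gaps remained around Mrpl23 itself: no other gene between Tnnt3 and Igf2 entered the fit with a symbol of its own.

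**Figure D4:**
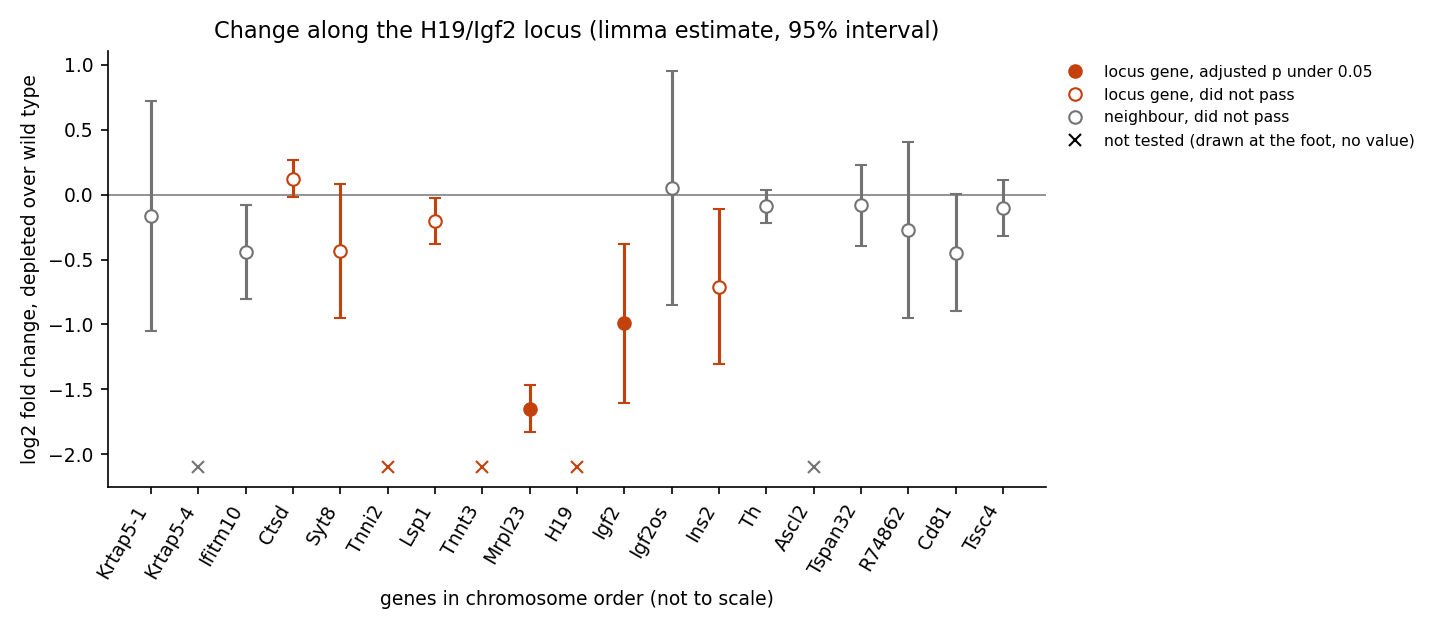
Log2 fold change, depleted over wild type (limma estimate with 95% interval), for genes of the locus (orange) and beside it (grey) in chromosome order, not to scale. Filled points had an adjusted p under 0.05, and crosses at the foot mark genes not tested. Mrpl23 at -1.65 and Igf2 at -0.99 are the filled points, and the interval of Mrpl23, -1.83 to -1.47, overlaps that of Igf2 alone among the locus genes.

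The partners of IGF2 and the factors that act on the control region were read from lists drawn up from general knowledge. Of 28 genes of IGF and insulin signalling tested, Igf2 included, 2 were called higher and 2 lower, where 16.4% of all genes were called, with a median of -0.03 beside -0.02 over all genes. Foxo1, a transcription factor that insulin signalling holds in check, rose from 1965 ± 45.1 to 2239 ± 91.3 (SD, n = 5). The lipid kinase gene Pik3ca rose by 0.21 ± 0.07 (SE), but its other probe sets gave 0.04, -0.08, 0.06 and 0.07. Grb10, an adaptor that restrains insulin and IGF receptors and is itself imprinted, fell by 0.26 ± 0.08 on the log2 scale. Igf2r, the receptor that clears IGF2, had -0.05 ± 0.08, Igf1r, through which IGF2 signals, -0.27 ± 0.12, and Insr -0.46 ± 0.20, and none of these brightest probe sets passed. Another Igf1r probe set was called lower, at -0.51 (limma, adjusted p = 0.0187), and the remaining ones gave -0.35 and -0.15, not called. Igf2bp1 and Pdpk1, not called on their brightest probe sets at 0.74 and 0.12, were each called higher on another. These gave 1.00 for Igf2bp1 (limma, adjusted p = 0.0465) and 0.32 for Pdpk1 (limma, adjusted p = 0.00639). The other Foxo1 probe sets gave 0.11 and 0.15, and those of Grb10 -0.22 each. With no intensity trend 0 genes of this list were called in either direction. The covariate for RNA quality gave 2 higher and 0 lower. No filter, or the replicate number as a block, gave 1 higher and 1 lower. Median centring gave 3 higher and 1 lower, a filter at the 60th percentile 2 and 1, and quantile normalization 1 and 2. With 1 array omitted, the rises numbered 1 without wild-type replicate 4 or 5 or depleted replicate 1, 3, 4 or 5. The falls numbered 0 without replicate 2 of either group and 1 without wild-type replicate 1, 3, 4 or 5 or depleted replicate 1 or 4.

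Of 24 regulators of the control region tested, Ctcf included, 5 were called higher and 2 lower, where 7.26% and 9.12% of all genes were, with a median of 0.07. Sox2, a pluripotency factor, rose from 28.9 ± 3.59 to 63.0 ± 6.61 (SD, n = 5) and Zfp42, related to the factor YY1, from 12.8 ± 2.57 to 28.2 ± 7.14. Zfp445, a zinc finger protein that guards imprints, rose by 0.43 ± 0.06 on the log2 scale (SE), and its remaining probe sets gave 0.46 and 0.03. Stag1 and Stag2, subunits of cohesin, rose by 0.38 and 0.28, and 1 of 5 other Stag1 probe sets was called, at 0.42. Smc1a, also of cohesin, fell by 0.23 ± 0.06, but its other probe sets gave -0.10 and 0.01. The imprint protectors Zfp57 and Dppa3 had 0.09 and -0.02, and the methyltransferase genes Dnmt1 and Dnmt3l -0.02 and 0.08, none of them called. The falls numbered 1 under median centring, with no intensity trend, without depleted replicate 1 or 4, or without wild-type replicate 2 or 4.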

How the data were processed

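Per the labels, oocyte RNA was cleaned up with a Picopure kit and labelled with biotin by a protocol for small samples. The authors deposited linear intensity values, 1 signal per probe set and array; the submitters' processing notes name MAS5, whose version and settings are not given in the sources used here. Their mean, after the lowest and highest 2% were left out, was 150.0 on each of 10 arrays, so a difference in total RNA between groups is not seen. MAS5 subtracts mismatch signal, which makes dim values variable.

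Leaving out 64 control probe sets, signals were taken as log2(signal + 2.47), the 25th percentile, so dim genes show too small a change. Of these, the 40% with the lowest mean, below 5.13, were dropped. The remaining 27022 were fitted in R 4.3.3 with limma 3.58.1 (lmFit, eBayes with an intensity trend) and Benjamini-Hochberg adjustment, with calls at an adjusted p under 0.05. Symbols came from the platform annotation, and 34754 of 34945 single-symbol probe sets were found by gene ID in the RefSeq table, with 0 symbols changed. Exact permutation tests ran over 252 splits of 5 and 5 arrays. The fit was tested on simulated data.

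Replicate numbers were not taken as pairs. Deviations of same-numbered arrays correlated at 0.00243 to 0.0506. For 2 of the 5 wild-type arrays the depleted array with the highest correlation had the same number. Pairing was not tested beyond these values and a block for the replicate number. Named were all probe sets of the 9 genes and Ctcf, called neighbours, in each list up to 4 called genes of smallest adjusted p, and the 3 genes most like Igf2; others were named after their values were seen. The 9 genes and the lists were chosen with earlier results of these data known. The alternatives were other offsets, filters, scalings, variance models and thresholds, weighting of arrays, a block for the replicate number, a covariate for RNA quality (3-prime over 5-prime signal), averaging of a gene's probe sets, and omission of 1 array at a time. The control level, the pairs within an array and the Mrpl list were added after seeing the data.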

Additional observations from a re-analysis of the deposited data

Results flagged for a closer look

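One array stood far from the others of its group. On the Tnni2 probe set 1438609_x_at, wild-type replicate 3 read 19.02 while the other wild-type arrays read 1.10 to 3.02, and its gap to the nearest array was 0.76 of the group's range on the log2 scale. Of 22 groups of 5 arrays examined, 1 stood out in this way, and chance gives about 5% of groups. The other Tnni2 probe sets read 5.72 and 0.157 on that array.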

How the results depend on the processing

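Mrpl23 kept its direction and its call under 20 of 20 alternatives, from -1.70 to -1.52 (limma, adjusted p from 6.08e-10 to 6.55e-06). Igf2 kept its direction under 19 of 19 and was not called with no filter or no intensity trend (both -0.99), with the replicate number as a block (-0.99) or with the 3-prime to 5-prime covariate (-0.965); leaving out single arrays gave -1.19 to -0.82. The filter at the 60th percentile left Igf2, Ins2 and Syt8 untested. The locus probe sets called lower numbered 1 with no filter, the 60th percentile, no intensity trend, the replicate block, the covariate or a threshold of 0.01, and 1 to 2 with single arrays left out. Neighbours called stayed at 0 in both directions under every alternative run. Genes of the 5 lists numbered 9 higher and 11 lower. Without the trend they numbered 5 higher and 6 lower, and under median centring 13 higher and 7 lower, so the larger direction changed. The 60th percentile gave 7 higher and 7 lower, and the covariate 8 higher and 7 lower. At a threshold of 0.01 the lists held 6 lower. With single arrays left out they held 6 to 9 higher and 7 to 11 lower. The replicate block left the summed counts of the 5 lists within 1.5 times. Median centring moved all calls from 1003 higher and 1260 lower (55.7% lower) to 1418 and 709 (33.3%). The cause of these moves was not tested. Signals near the control level limit what Igf2, Ins2, Syt8, Tnni2 and Tnnt3 can show. The same holds for list genes dim in either group, such as Ptgs2, Tnnc2, Scarb2, Neu1 and Syt12.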
